A study of Mus musculus with 12 samples.

Results

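The 44 genes described here carry names of nuclear-encoded subunits of respiratory complexes III, IV and V. Membership was by name alone, with no expression value, though the gene set was chosen with earlier results of these data known. The rule took names beginning with Uqcr or Atp5, names beginning with Cox4, Cox5, Cox6, Cox7 or Cox8 and then a, b or c, and Cyc1, leaving out names that end in -ps and a number. Of 31272 gene names in the deposited tables, 50 matched and 6 were left out by that ending. The 44 kept were 9 of complex III, 15 of complex IV, 17 of complex V and 3 rows named as pseudogenes, Atp5l2-ps, Atp5pb-ps and Cox5b-ps. Cox6c2, counted with complex IV by its name, is annotated as a processed pseudogene. Cox4i1, a core nuclear subunit of complex IV, did not match the rule and is given below with the neighbouring pathway genes.

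The series comprised 12 bulk RNA-seq libraries from wild-type (WT) mouse bone marrow cells sorted as hematopoietic stem cells (HSCs), 3 for each of 4 treatments named Ctrl, IR, Ab_IR and L_IR. IR stands for ionizing radiation, and a protocol text shared by all libraries gives sorting 3 days after irradiation, a time taken here for IR, Ab_IR and L_IR and not for Ctrl. The study's methods define the sort by absence of lineage markers, Flt3 and CD34 and by presence of Sca-1 and c-Kit. What Ab and L stand for is not given in the labels, and both are used here as names. Nothing in the labels says whether replicates came from separate mice, so p-values measure the spread between these libraries, which may be technical. In the sentences that follow, values of a group are listed in the order of replicates 1, 2 and 3.

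Complex III passes electrons from ubiquinol to cytochrome c, complex IV passes them from cytochrome c to oxygen, and complex V, the ATP synthase, uses the proton gradient that the chain builds to make ATP. Their catalytic cores are partly encoded by mitochondrial DNA, and the nucleus supplies the remaining core proteins and a set of small accessory subunits, several of which exist as tissue-specific isoforms. HSCs at rest are known to rely largely on glycolysis and to raise mitochondrial respiration when they divide and differentiate.

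The values are FPKM, that is, fragments scaled to transcript length and to the mapped fragments of a library, and no read totals can be had from them, so the depth is unknown. FPKM summed to between 344338 and 405123 per library, with 11467 to 12167 genes at 1 FPKM or more. Ctrl replicate 1 stood apart, with 44.1% of its rows at 0 against 24.7% to 27.3% in the other 11 libraries. The sort label was not borne out by all of its markers: of 10 genes marking HSCs, 4 never reached 1 FPKM in any of the 12 libraries, and Mecom, Hoxb5 and Fgd5 were 3 of these 4. Kit (c-Kit, 6.70 to 25.45 FPKM) and Ly6a (Sca-1, 25.92 to 61.47), markers of the sort itself, were present in every library. From Ctrl to IR the mean of Kit went from 23.5 to 6.87 and that of Ly6a from 35.1 to 58.6. Of 5 tested there, 1 was higher and 3 lower, where 17.5% and 25.5% of all genes were. A list of 16 heart muscle genes summed to between 144.6 and 184.9 FPKM in the 3 IR libraries and in Ctrl replicates 2 and 3, and to at most 1.93 in the other 7, so this split coincided with IR against Ab_IR and IR against L_IR. With Ctrl replicate 1 left out, it also coincided with Ab_IR against Ctrl and L_IR against Ctrl. Erythroid markers (7 genes) summed to 2369 to 2814 FPKM in Ctrl, 363.4 to 371.6 under IR, 2354 to 2542 under Ab_IR and 1153 to 1192 under L_IR. Megakaryocyte markers (5 genes) were also lowest in IR, with 49.46 to 65.55 in Ctrl, 11.29 to 13.22 under IR, 133.4 to 137.6 under Ab_IR and 81.53 to 87.28 under L_IR. Neutrophil and monocyte markers (10 genes) summed to 10822 to 12429 in Ctrl, 15877 to 16154 under IR, 11528 to 12120 under Ab_IR and 8736 to 8953 under L_IR. Its members did not move together, as 5 were higher in IR than in Ctrl and 2, Ly6c2 (-2.14) and Csf1r (-1.02), were lower. Plasma cell and B cell markers (6 genes) summed to 9966 to 13190, 17231 to 18447, 17765 to 18383 and 25476 to 26348. The part of these other cells in the results below was not tested. In these bulk libraries a change in the number of cells of a type and a change in RNA per cell cannot be told apart.

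Levels within a complex were unequal. FPKM is scaled to length, but means still went with length among these genes, so the order of genes of unlike length is a description. Complex V held the highest values. Its catalytic pair, Atp5a1 and Atp5b, averaged 348 and 299 FPKM over the 12 libraries, and the lowest of Atp5b (276 FPKM) lay above the highest of the next member, Atp5c1 (122 FPKM), the central stalk subunit. At the other end stood the small membrane subunits Atp5k and Atp5md, at 8.44 and 6.84 FPKM. Complex III was the most even, its means running from 77.7 FPKM for the core protein Uqcrc1 to 32.6 for the small subunit Uqcr11, a 2.38-fold span, and every neighbour in that order overlapped over the 12 libraries. Among complex IV subunits Cox6a1 (150 FPKM), Cox8a (134) and Cox6b1 (113) led. The muscle-type isoforms were near the floor, with Cox6a2 at 2.30 FPKM, Cox7a1 at 0.626 and Cox8b at 0.142, while Cox6b2, known as a testis isoform, averaged 11 FPKM. Low means went with short transcripts: over 43 genes with a length, the mean log2(FPKM + 1) and the log2 length had r = 0.60 and rho = 0.60, as a description across genes, which are not independent. In the ranking within complexes no gap separated neighbours other than Atp5b from Atp5c1, Atp5g2 from Atp5j2, and Cox7c from Cox6c.

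**Figure D1:**
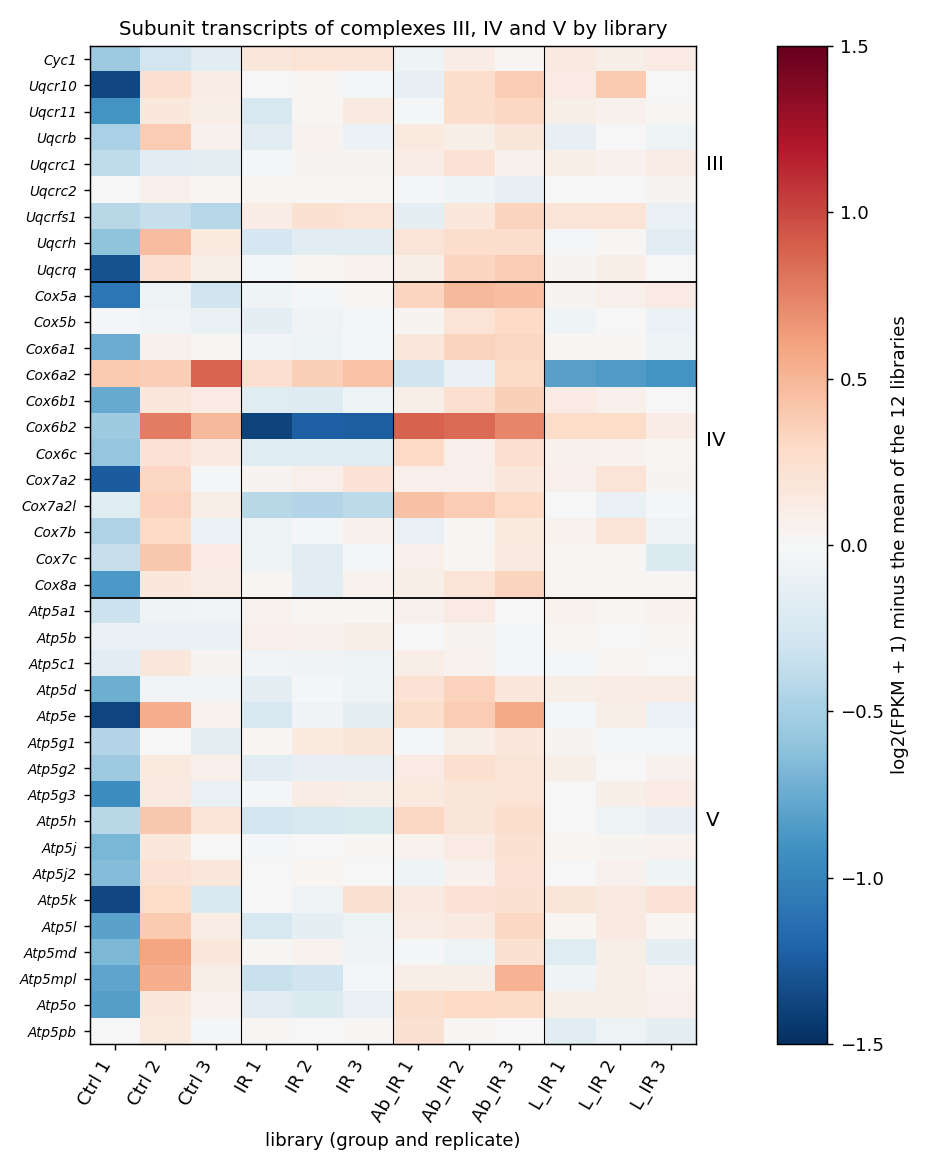
Colour gives log2(FPKM + 1) of each subunit transcript (rows, grouped by complex) in each of the 12 libraries (columns) minus that row's mean over the libraries. Ctrl replicate 1 is the lowest column for most rows, and the Cox6b2 row is lowest in IR (2.97 to 3.45 FPKM).

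Ctrl replicate 1 was low for these genes. Of the 41 tested in IR against Ctrl, 34 were lower in it than in both other Ctrl libraries, against 40.4% of all 12072 genes tested, and 31 had their lowest value of all 12 libraries there. The median of its difference from the mean of Ctrl replicates 2 and 3 was -0.72 on the log2(FPKM + 1) scale for these genes and 0.02 for all genes tested. Atp5e, the epsilon subunit, read 3.9, 17.7 and 12.2 FPKM in Ctrl, and Uqcrq, a small complex III subunit, read 14.1, 42.9 and 38.7. Short transcripts differed most. Below 600 bases the median difference was -1.02 for 18 of these genes and -0.35 for all genes of that length. From 600 to 1000 bases it was -0.75 and -0.32, and from 1000 to 2000 bases -0.22 and -0.10. Across 40 genes with a length, the difference followed log2 length with r = 0.62 and rho = 0.64. These genes are short as a class, with a median transcript of 606 bases against 2339 for all genes tested, so the counts called in comparisons with Ctrl are given with and without this library. The cause of its difference was not tested.

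**Figure D2:**
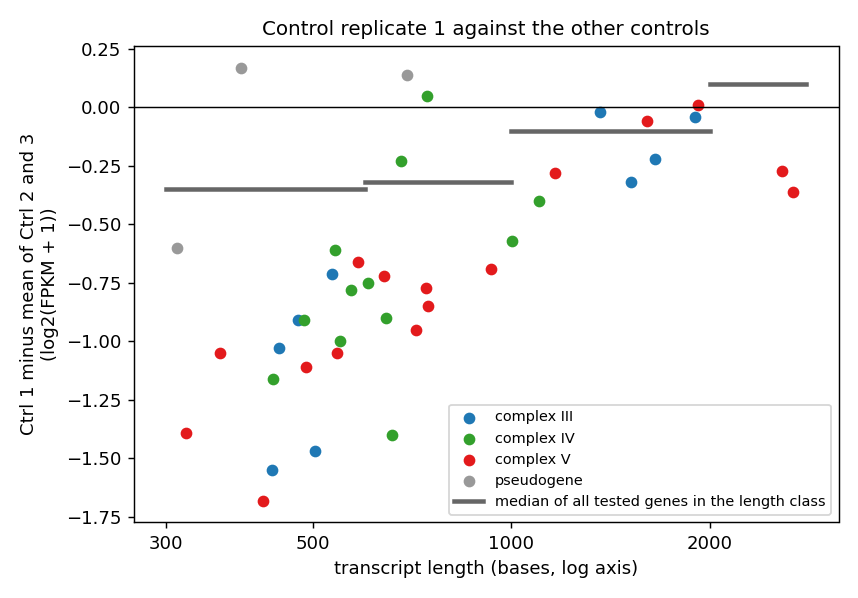
Each point is a gene, placed by transcript length (bases, log axis) and by Ctrl replicate 1 minus the mean of Ctrl replicates 2 and 3 (log2(FPKM + 1)), coloured by complex. Black bars give medians of all tested genes in the length class, -0.35, -0.32, -0.10 and 0.10, and most points below 1000 bases lie under these bars, with a median of -1.02 below 600 bases.

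IR against Ctrl asks how the transcripts differed 3 days after irradiation. Of the 44 genes, 41 reached 1 FPKM in at least 3 libraries of the comparison and were tested, and Cox6c2, Cox7a1 and Cox8b did not. Of the 41, 4 were higher and 2 lower in IR at an adjusted p under 0.05 (limma, Benjamini-Hochberg over all genes tested), where 17.5% of all genes were called higher and 25.5% lower. Past an absolute log2 fold change of 1 stood 1 of them, Cox6b2, against 7.60% of all genes. Both shares lay below those of all genes, a difference that was not tested. None of the 3 pseudogene rows was called in this or any later comparison. The median log2 fold change was 0.07, beside -0.05 over all genes tested. Groups did not overlap for 9 of the 41, against 58.1% of all genes tested. The split of 4 higher and 2 lower was 2 and 2 after quantile normalization, 5 and 2 after median scaling, and 6 and 2 with immunoglobulin genes left out or with the length trend taken out. Apart from leaving out Ctrl replicate 1 alone, shares of all genes called under alternative fits are not given here or below. Such counts thus have no background beside them.

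In complex III, 3 of 9 rose and none fell. Uqcrfs1, the Rieske iron-sulfur protein at chr13:30540312-30545316 (GRCm38), read 53.9, 56.3 and 53.2 FPKM in Ctrl and 77.6, 84.5 and 83.1 in IR. Every IR value lay above every Ctrl value (log2 fold change 0.58 ± 0.0621, adjusted p = 7.51e-04). Cyc1, cytochrome c1, read 39.04, 47.4 and 50.9 FPKM in Ctrl and 64.9, 66.2 and 65.6 in IR, again without overlap (0.52 ± 0.102, adjusted p = 0.00798). The core protein Uqcrc1 rose less, from 59.1, 68.3 and 69.7 to 75.9, 79.4 and 79.5 FPKM (0.25 ± 0.0794, adjusted p = 0.0429). Its partner Uqcrc2 had a log2 fold change of -0.02 and the hinge protein Uqcrh -0.20, neither past the threshold. The Uqcrfs1 and Cyc1 calls held under each rescaling and each left-out library. The Uqcrc1 call was lost without Ctrl replicate 2 (0.28) and without each IR library (0.24 to 0.27), and under quantile normalization (0.15).

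In complex IV, 2 of 12 tested fell and none rose. Cox6b2, a subunit facing the intermembrane space at chr7:4751792-4753094, read 6.19, 16.7 and 13.5 FPKM in Ctrl and 2.97, 3.45 and 3.42 in IR. All IR values lay below the lowest Ctrl value (log2 fold change -1.52 ± 0.320, adjusted p = 0.0101). Cox7a2l, which lies at chr17:83501917-83514333, read 53.2, 76.9 and 64.8 FPKM in Ctrl and 44.9, 44.5 and 45.7 in IR (-0.50 ± 0.130, adjusted p = 0.0220). Its groups did not overlap, but the call was lost without Ctrl replicate 3 (-0.50) and without each IR library. The matrix-side subunits did not pass: Cox5a read 14.95, 31.16 and 26.52 FPKM in Ctrl and 31.25, 32.48 and 33.53 in IR (0.47 ± 0.249, adjusted p = 0.179), and Cox5b read 43.6, 43.1 and 41.3 and 39.99, 42.7 and 44.02 (-0.01 ± 0.0623, adjusted p = 0.873). Cox5a did not overlap between the groups, its highest Ctrl value lying just under its lowest IR value, and Cox5b did. In complex V, 1 of 17 rose and none fell: Atp5b, the catalytic beta subunit, read 279, 276 and 279 FPKM in Ctrl and 316, 313 and 320.2 in IR (0.19 ± 0.0580, adjusted p = 0.0417). That call was lost without Ctrl replicate 2 or 3 and without each IR library (0.18 to 0.19), and under quantile normalization (0.11). Each left-out IR library thus took the counts from 4 higher and 2 lower to 2 higher and 1 lower, and leaving out Ctrl replicate 3 left 1 lower.

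Without Ctrl replicate 1 the balance of calls in the same comparison changed. With Ctrl replicates 2 and 3 alone, 4 of the 41 were higher and 16 lower in IR, where 25.1% of all genes were called higher and 34.7% lower, and the median went from 0.07 to -0.15 beside -0.06 over all genes. Uqcrfs1, Cyc1, Uqcrc1 and Atp5b stayed higher. The 16 lower were 2 of complex III, 5 of complex IV and 9 of complex V. By size they were led by Cox6b2 (-1.91 ± 0.102, adjusted p = 3.13e-05) and Cox7a2l (-0.64 ± 0.0739, adjusted p = 6.80e-04). Atp5h, subunit d of the peripheral stalk, read 63.1, 112 and 97.4 FPKM in Ctrl and 69.8, 71.3 and 72.5 in IR (-0.55 ± 0.0653, adjusted p = 7.50e-04 without Ctrl replicate 1, against -0.31 ± 0.202, adjusted p = 0.264 with it). Uqcrh read 35.4, 75.4 and 60.5 FPKM in Ctrl and 45.5, 48.6 and 48.3 in IR (-0.50 ± 0.0932, adjusted p = 0.00457 without it). In both genes Ctrl replicate 1 lay below every IR library and Ctrl replicates 2 and 3 lay above. The balance also moved with the scaling: without Ctrl replicate 1 it was 4 higher and 19 lower after quantile normalization, 7 higher and 12 lower after median scaling, 7 and 10 with immunoglobulin genes left out, and 9 and 9 with the length trend taken out.

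**Figure D3:**
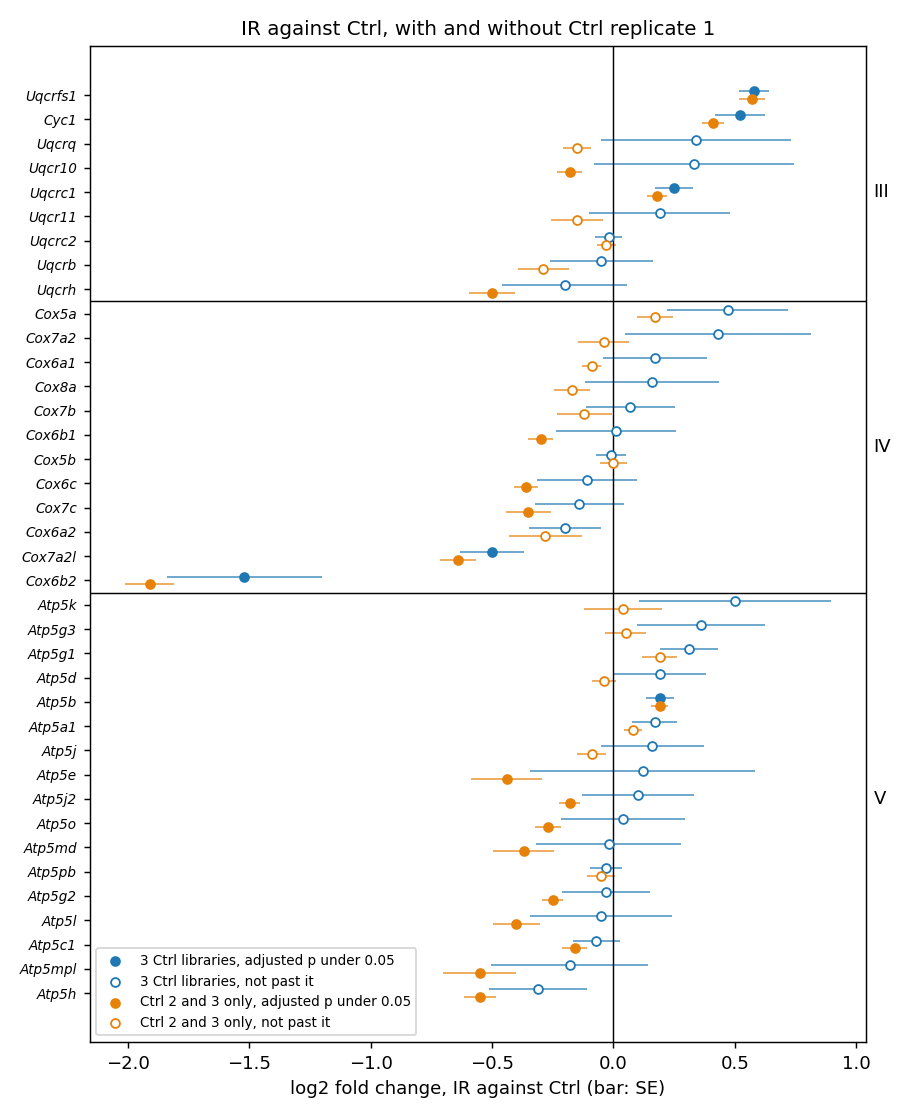
Points give each subunit's log2 fold change of IR against Ctrl (bars: SE), with all 3 Ctrl libraries and with Ctrl replicates 2 and 3 only (colours as in the legend), and filled points pass an adjusted p of 0.05. Leaving out Ctrl replicate 1 shifts most rows to the left, turns 2 lower calls into 16, and leaves Uqcrfs1 (0.58 and 0.57) where it was.

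Ab_IR and L_IR were each set against IR to ask how the transcripts differed between the groups with IR in their names, and as both use the same 3 IR libraries they are given side by side and not as separate support. In Ab_IR against IR, 21 of 41 were higher and 2 lower, where 39.4% of all genes were called higher and 29.4% lower. The higher genes were 3 of complex III, 9 of complex IV and 9 of complex V, and the 2 lower were Cyc1 and Cox6a2. The median log2 fold change was 0.18, beside 0.06 over all genes, and groups did not overlap for 26 of the 41, against 73.0% of all genes. In L_IR against IR, 12 were higher and 5 lower, where 40.8% of all genes were called higher and 26.0% lower, with a median of 0.06 beside 0.07 and no overlap for 18, against 71.2% of all genes. Past an absolute log2 fold change of 1 stood 1 gene in Ab_IR (7.57% of all genes) and 2 in L_IR (6.22%). A fit of all 12 libraries, in which Ctrl takes part in the estimate of the spread, left 4 higher and 0 lower in Ab_IR and 2 and 1 in L_IR. By complex, the medians against IR were 0.18, 0.29 and 0.13 for complexes III, IV and V in Ab_IR and 0.03, 0.07 and 0.06 in L_IR.

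Cox6b2 had the largest difference from IR in both. It read 18.3, 17.7 and 16.3 FPKM in Ab_IR and 11.5, 11.6 and 10.2 in L_IR, against 2.97, 3.45 and 3.42 in IR. Neither group overlapped IR (log2 fold change 2.11 ± 0.0641, adjusted p = 3.64e-07 for Ab_IR and 1.5 ± 0.0654, adjusted p = 2.41e-06 for L_IR). Cox7a2l came second among the rises, at 82.2, 79.2 and 74.8 FPKM in Ab_IR and 60.7, 56.2 and 59.7 in L_IR (0.79 ± 0.0416, adjusted p = 4.05e-06 and 0.38 ± 0.0333, adjusted p = 6.65e-05). Both genes kept their calls in all rescalings and with each library left out. Cox5a read 41.4, 46.2 and 45.4 FPKM in Ab_IR, above 31.2, 32.5 and 33.5 in IR (0.44 ± 0.0507, adjusted p = 1.92e-04). In L_IR it read 33.8, 34.5 and 35.9 (0.10 ± 0.0360, adjusted p = 0.0482), a call that was lost without IR replicate 1 or 2 or L_IR replicate 2 or 3 (0.07 to 0.10) and changed sign with the length trend taken out (-0.03). Cox6a1, the ubiquitous isoform of subunit 6a, rose from 143, 140.2 and 145 FPKM in IR to 166, 187 and 184 in Ab_IR (0.32 ± 0.0494, adjusted p = 8.35e-04) and read 150.2, 149 and 141 in L_IR (0.04 ± 0.0310, adjusted p = 0.283). The small subunit Cox8a read 134, 117 and 137 in IR, 141, 152 and 167 in Ab_IR (0.25 ± 0.0794, adjusted p = 0.0267) and 134, 135 and 134 in L_IR (0.06 ± 0.0567, adjusted p = 0.383). The Cox8a rise in Ab_IR was lost without IR replicate 2 or Ab_IR replicate 2 or 3 (0.18 to 0.25).

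Cox6a2, the muscle isoform, read 3.04, 2.98 and 4.62 FPKM in Ctrl, 2.65, 2.95 and 3.12 under IR, 1.5, 1.87 and 2.74 under Ab_IR and 0.74, 0.70 and 0.65 under L_IR. L_IR lay below all other libraries, at a log2 fold change of -1.20 against IR. All 3 L_IR values were under 1 FPKM, so in each comparison with L_IR the gene entered the test only through the other group, where it was high, and its differences from L_IR are given as a description although it counts among the calls. With no filter on low values it was called in the same direction in all 3 of these comparisons. The Ab_IR difference (-0.38 ± 0.141, adjusted p = 0.0439) came with overlapping groups and was lost without any one IR library or without Ab_IR replicate 1 or 2 (-0.43 to -0.25). The heart marker Nppa stood at 0, 51.75 and 62.49 FPKM in Ctrl, at 51.16, 63.92 and 60.71 under IR, and at 0.26 or below in each Ab_IR and L_IR library. The other muscle isoforms were too low to test, with Cox7a1 at 0, 0.85 and 1.07 FPKM in Ctrl and 0.98, 0.85 and 1.31 in IR and Cox8b listed at 0 in 9 of 12 libraries. The part of heart transcripts in the differences from IR was not tested.

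In complex III, Uqcrh rose from 45.5, 48.6 and 48.3 FPKM in IR to 62.5, 65.6 and 65.4 in Ab_IR (0.43 ± 0.0402, adjusted p = 6.17e-05), with no overlap. In L_IR it read 53.4, 55.5 and 48.8 (0.14 ± 0.0515, adjusted p = 0.0437), a call lost without any IR library or without L_IR replicate 1 or 2 (0.10 to 0.16) and turned to -0.01 with the length trend taken out. Cyc1 fell from 64.9, 66.2 and 65.6 in IR to 54.7, 62.1 and 58.4 in Ab_IR (-0.17 ± 0.0484, adjusted p = 0.0178) and 62.9, 61.2 and 62.7 in L_IR (-0.07 ± 0.0225, adjusted p = 0.0250). Both Cyc1 calls were lost without IR replicate 2 or 3, and the L_IR call also without L_IR replicate 2 (-0.17 to -0.06 over these fits). In a fit of all 12 libraries with the heart split as a term the Cyc1 differences turned to 0.16 in Ab_IR and 0.25 in L_IR. That term is estimated from Ctrl replicate 1 against Ctrl replicates 2 and 3 alone, where Cyc1 differed by -0.32. It thus takes in any other difference of Ctrl replicate 1 and cannot show the part of heart transcripts. Uqcrfs1 read 65.1, 80.2 and 90.6 FPKM in Ab_IR and 82.7, 82.9 and 66.8 in L_IR, and differed from IR by -0.07 in Ab_IR and -0.08 in L_IR, neither past the threshold.

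In complex V the rises in Ab_IR were led by Atp5e, at 9.81, 11.3 and 10.6 FPKM in IR and 14.3, 15.6 and 17.9 in Ab_IR (0.54 ± 0.0856, adjusted p = 9.55e-04), and by Atp5h, at 69.8, 71.3 and 72.5 and 106, 96.3 and 102 (0.50 ± 0.0420, adjusted p = 3.71e-05). Atp5o, the OSCP subunit that joins the stalk to the catalytic head, rose in both, from 65.1, 63.1 and 67.9 FPKM in IR to 88.04, 90.3 and 89.1 in Ab_IR and 77.5, 77.7 and 77.2 in L_IR (0.44 ± 0.0370, adjusted p = 3.68e-05 and 0.24 ± 0.0302, adjusted p = 3.65e-04). Groups did not overlap in any of these. Atp5o shares exonic bases with Donson on the same strand in the annotation, so its reads could be split between them. Cox6a2, Atp5pb, Cox5a, Uqcrb, Uqcrc2, Atp5a1, Atp5j, Atp5l and Atp5md overlap an antisense gene, and whether the counting used strand is not given in the sources used here. The largest rise of complex V in L_IR was Atp5mpl, a small membrane subunit, at 14.6, 15.1 and 18.3 FPKM in IR and 18.01, 20.1 and 19.5 in L_IR (0.25 ± 0.0839, adjusted p = 0.0323), a call lost without IR replicate 1 or 2 or L_IR replicate 2 or 3 (0.20 to 0.24). The largest fall there was Atp5pb, subunit b of the peripheral stalk, from 67.4, 66.4 and 67.4 to 59.2, 63.2 and 59.95 FPKM (-0.14 ± 0.0295, adjusted p = 0.00483). The catalytic Atp5b read 299.97, 306 and 292 in Ab_IR and 305, 299.6 and 304 in L_IR (-0.08 ± 0.0326, adjusted p = 0.0650 and -0.06 ± 0.0209, adjusted p = 0.0316). The L_IR call of Atp5b was lost without any IR library or L_IR replicate 2 or 3 (-0.07 to -0.05). Atp5a1, the alpha subunit, differed from IR by 0.03 in Ab_IR and 0.01 in L_IR, short of the threshold.

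**Figure D4:**
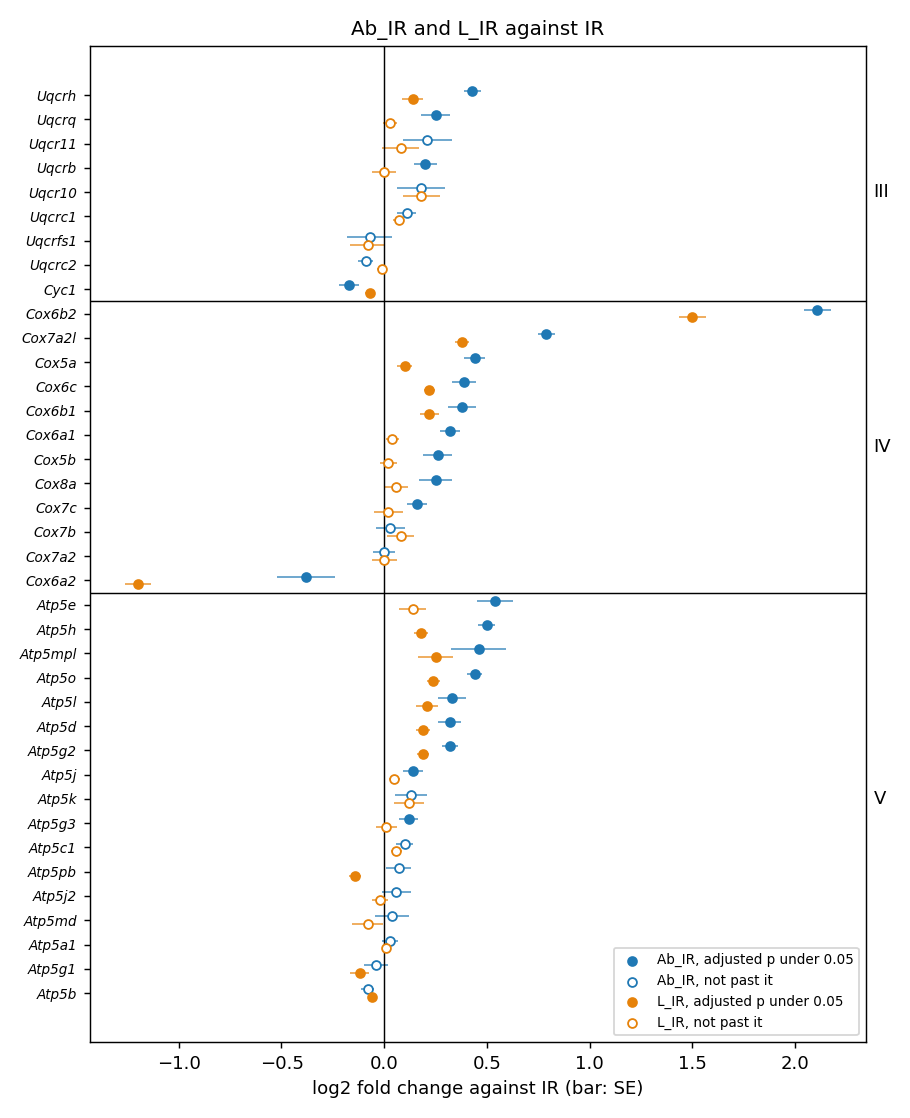
Points give each subunit's log2 fold change against IR (bars: SE) for Ab_IR and L_IR (colours as in the legend), by complex, and filled points pass an adjusted p of 0.05. Cox6b2 lies far to the right (2.11 and 1.5), Cox6a2 to the left (-0.38 and -1.20), and every other row but Cox7a2l in Ab_IR (0.79) lies within 0.54 of 0.

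These counts moved with the scaling, and the shares of all genes called under each rescaling are not given beside them. For Ab_IR against IR the split of 21 higher and 2 lower became 20 and 5 after quantile normalization, 14 and 4 after median scaling, 14 and 6 with immunoglobulin genes left out, and 10 and 6 with the length trend taken out. For L_IR against IR it went from 12 and 5 to 15 and 3, 9 and 6, 11 and 5, and 3 and 11 in the same order. Leaving out immunoglobulin genes, which held 9.0% to 22.6% of the FPKM, shifted the median of all genes in Ab_IR against IR from 0.06 to -0.07 and in Ab_IR against L_IR from 0.01 to -0.11, and the medians of these genes from 0.18 to 0.03 and from 0.13 to -0.01. Atp5o has no annotated length here and was not in the length fit, so it could be tested under 3 of the 4. Called in the same direction under every rescaling that tested them were 11 of the 21 higher in Ab_IR (Atp5e, Atp5g2, Atp5h, Atp5o, Cox5a, Cox6a1, Cox6b1, Cox6b2, Cox6c, Cox7a2l and Uqcrh) and both lower ones. In L_IR they were 4 of 12 higher (Atp5o, Cox6b2, Cox6c and Cox7a2l) and 3 of 5 lower (Atp5b, Atp5pb and Cox6a2). Cox6a2 passed the filter there only through IR, so it is listed as a description and not as a call that held. Leaving out IR replicate 1 left 1 lower call in Ab_IR, and leaving out IR replicate 2 or 3 left 0. The 5 lower calls in L_IR became 2 without IR replicate 2 or 3 and 3 without L_IR replicate 2 or 3.

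Ab_IR against L_IR compares these groups directly, with heart transcripts low in all 6 libraries. Of 41 genes, 14 were higher in Ab_IR and 0 lower, where 18.2% of all genes were called higher and 19.8% lower. At an unadjusted p under 0.05, 19 were higher and 0 lower, where 48.1% of all genes passed in either direction. Limma without a trend called 11 and 0, and a fit of all 12 libraries called 3 and 0. None passed an absolute log2 fold change of 1, which 0.533% of all genes did. The 14 were 2 of complex III, 7 of complex IV and 5 of complex V, and the medians were 0.04, 0.21 and 0.12, beside 0.01 over all genes. Groups did not overlap for 21 of the 41, against 51.9% of all genes. Cox6b2 was higher in Ab_IR (0.60 ± 0.0620, adjusted p = 5.13e-04), as were Cox7a2l (0.41 ± 0.0486, adjusted p = 8.68e-04) and Cox5a (0.34 ± 0.0504, adjusted p = 0.00225). In complex V Atp5e, at 11.6, 12.7 and 10.99 FPKM in L_IR (0.40 ± 0.0857, adjusted p = 0.00992), and Atp5h, at 83.99, 80.3 and 77.9 (0.32 ± 0.0475, adjusted p = 0.00222), led, and in complex III Uqcrh (0.29 ± 0.0530, adjusted p = 0.00523). The 3 libraries of each group did not overlap for any of these 6. Cox6a2, which is among the 14 and passed the filter only through Ab_IR, differed by 0.82. With immunoglobulin genes left out the split was 6 higher and 4 lower, with the length trend taken out 8 and 3, and after quantile normalization 10 and 1. Called under all 4 rescalings were Atp5e, Atp5h, Cox5a, Cox6b2, Cox7a2l and Cox6a2, the last listed as a description only because of that filter.

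**Figure D5:**
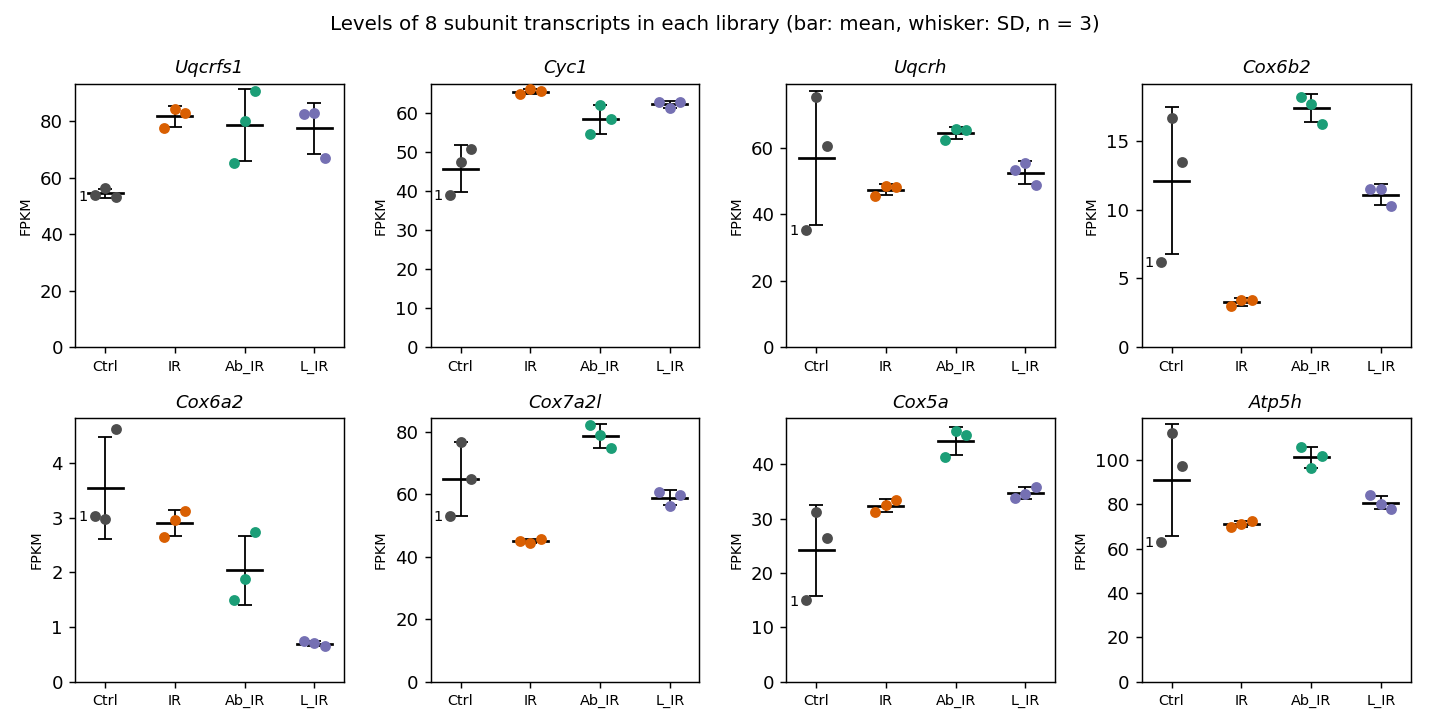
FPKM of 8 subunit transcripts in each library by group, with the mean (bar) and SD (whisker, n = 3), and Ctrl replicate 1 numbered. Cox6b2 and Cox7a2l have their lowest mean in IR and their highest in Ab_IR, Uqcrfs1 and Cyc1 are higher in IR than in Ctrl, and Cox6a2 is lowest in L_IR (0.65 to 0.74 FPKM).

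Against Ctrl, Ab_IR showed 0 calls in either direction among 40 genes tested, where 1.45% of all genes were called higher and 0.651% lower, and 0.923% passed the fold of 1. At an unadjusted p under 0.05, 6 were higher and 1 lower, where 20.9% of all genes passed in either direction. Limma without a trend also called 0, while a fit of all 12 libraries called 6 higher and 1 lower. Groups did not overlap for 14 of the 40, against 33.5% of all genes. The median was 0.29 with all Ctrl libraries and 0.07 without Ctrl replicate 1, beside -0.00 and -0.01 over all genes. Without that library 1 gene, Cox5a, was higher (14.9, 31.2 and 26.5 FPKM in Ctrl and 41.4, 46.2 and 45.4 in Ab_IR, 0.61 ± 0.0872, adjusted p = 0.0102), where 3.60% of all genes were called higher and 2.38% lower, and 3 genes were higher after median scaling. L_IR against Ctrl gave 2 higher and 1 lower of 41, with backgrounds of 4.76% and 4.08%, and 2.65% past the fold of 1, which Cox6a2 also passed. Quantile normalization gave 1 and 1. Groups did not overlap for 9, against 36.1% of all genes. Uqcrfs1 (0.49 ± 0.0980, adjusted p = 0.0303) and Cyc1 (0.44 ± 0.103, adjusted p = 0.0486) were higher. The 1 lower was Cox6a2 (-1.40), which passed the filter only through Ctrl. The Uqcrfs1 call was lost without Ctrl replicate 2 or 3 or L_IR replicate 1 or 2 (0.44 to 0.52), and the Cyc1 call without Ctrl replicate 2 or any L_IR library (0.44 to 0.47), which left 0 higher without Ctrl replicate 2 or L_IR replicate 1 or 2, and 1 higher without Ctrl replicate 3 or L_IR replicate 3. Without Ctrl replicate 1 there were 4 higher and 3 lower, where 10.4% and 10.3% of all genes were called. The 3 lower were Cox6a2, Cox6b2 (-0.41 ± 0.0988, adjusted p = 0.0347) and Atp5h (-0.37 ± 0.0709, adjusted p = 0.0165). That split was 4 and 11 after quantile normalization, 7 and 2 with immunoglobulin genes left out, and 6 and 4 with the length trend taken out.

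Shares between paralogs are not changed by a single scaling factor for a library, although quantile normalization and the length fit, which shift genes unequally, could change them and were not applied to them. Cox6b2 made up 8.66%, 11.7% and 10% of Cox6b1 and Cox6b2 together in Ctrl, 2.95%, 3.43% and 3.12% under IR, 13.2%, 11.8% and 10.3% under Ab_IR and 8.70%, 8.93% and 8.42% under L_IR. IR lay below every other library, Ctrl replicate 1 included, and Ab_IR above L_IR. Cox6a2 made up 2.74% ± 0.757 of Cox6a1 and Cox6a2 in Ctrl, 2% ± 0.156 under IR, 1.12% ± 0.307 under Ab_IR and 0.472% ± 0.0162 under L_IR (SD, n = 3). Cox7a2l made up 57.4% ± 9.74 of Cox7a2 and Cox7a2l in Ctrl, 41.3% ± 1.34 under IR, 55.2% ± 2.11 under Ab_IR and 48.0% ± 2.52 under L_IR, and here too the 3 IR libraries lay lowest. Cox7a2 itself read 24.3, 73.7 and 58.5 FPKM in Ctrl, 60.8, 62.4 and 68.9 under IR, 62.4, 62.3 and 66.7 under Ab_IR and 62.4, 68.5 and 60.8 under L_IR, so Ctrl replicate 1 had the highest Cox7a2l share. The c subunit that forms the rotor ring of complex V is encoded by Atp5g1, Atp5g2 and Atp5g3, whose mature proteins are identical. Atp5g1 read 11.5, 16.01 and 14.3 FPKM in Ctrl, 16.3, 17.8 and 18.1 under IR, 15.8, 17.2 and 17.9 under Ab_IR and 16.5, 15.6 and 15.6 under L_IR. Atp5g2 read 32.7, 53.5 and 50.97, 43.1, 44.1 and 43.95, 52.6, 57.1 and 54.96 and 51.4, 48.4 and 50.2 in the same order, and Atp5g3 29.7, 63.9 and 53.7, 56.8, 63 and 61.8, 64.5, 66.1 and 67.04 and 57.6, 61.6 and 63.5. Atp5g3 was the most abundant of the 3 in every library but Ctrl replicate 1. By share, Atp5g2 held 44.2%, 40.1% and 42.9% of their sum in Ctrl and 37.1%, 35.3% and 35.5% in IR, against 39.6%, 40.7% and 39.3% in Ab_IR and 40.9%, 38.6% and 38.8% in L_IR. The groups other than IR overlapped in that share. Reads of Cox5b and Cox5b-ps may be divided between near-identical copies, and the pseudogene row took 20.8% to 27.8% of their sum in the 12 libraries.

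Sequence upstream of the start is shown for Cox6b2 and Cox7a2l, which had the largest rises over IR in both Ab_IR and L_IR, beside their paralogs Cox6b1 and Cox7a2, and for Uqcrh and Atp5h, whose Ab_IR differences from IR held under every rescaling. Windows are from RefSeq (GRCm38.p6), trimmed to a stretch of the 250 bases before the start that no annotated exon overlaps, and read 5′ to 3′ toward the gene. Capitals mark a match within the printed stretch to the NRF1 core (CGCANGCG) or the ETS core (CCGGAAGT), searched on both strands. ACTTCCGG is thus the ETS core read from the other strand. Atp5h also held an ETS core between its printed stretch and the start, in bases that the trimming left out.
Uqcrh, chr4:116075072-116075268, minus strand: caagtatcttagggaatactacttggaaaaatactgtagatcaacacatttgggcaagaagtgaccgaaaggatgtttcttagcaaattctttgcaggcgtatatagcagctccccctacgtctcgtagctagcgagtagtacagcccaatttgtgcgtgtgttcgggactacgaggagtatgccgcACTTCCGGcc
Cox6b1, chr7:30626152-30626364, minus strand: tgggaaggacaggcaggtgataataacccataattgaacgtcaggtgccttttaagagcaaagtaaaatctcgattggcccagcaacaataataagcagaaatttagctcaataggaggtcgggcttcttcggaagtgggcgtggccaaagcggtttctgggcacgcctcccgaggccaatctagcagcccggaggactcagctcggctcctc
Cox6b2, chr7:4753095-4753228, minus strand: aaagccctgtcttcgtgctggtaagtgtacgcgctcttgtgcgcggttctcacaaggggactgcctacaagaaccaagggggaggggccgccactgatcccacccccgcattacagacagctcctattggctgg
Cox7a2, chr9:79759879-79760103, minus strand: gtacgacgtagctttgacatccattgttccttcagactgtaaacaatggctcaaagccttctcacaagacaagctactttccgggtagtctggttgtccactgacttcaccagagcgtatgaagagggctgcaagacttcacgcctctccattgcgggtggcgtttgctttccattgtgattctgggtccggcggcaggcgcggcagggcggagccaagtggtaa
Cox7a2l, chr17:83514334-83514583, minus strand: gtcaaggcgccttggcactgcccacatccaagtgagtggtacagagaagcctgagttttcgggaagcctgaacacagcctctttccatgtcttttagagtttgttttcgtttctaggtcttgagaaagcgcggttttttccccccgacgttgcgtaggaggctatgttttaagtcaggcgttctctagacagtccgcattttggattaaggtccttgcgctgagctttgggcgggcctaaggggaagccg
Atp5h, chr11:115419963-115420127, minus strand: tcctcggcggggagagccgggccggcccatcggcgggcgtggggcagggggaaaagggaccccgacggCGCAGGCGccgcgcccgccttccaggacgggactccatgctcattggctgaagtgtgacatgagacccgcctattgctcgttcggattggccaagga
NRF1 and the ETS-family factor GABP are known regulators of nuclear respiratory genes. In windows of 250 bases before to 50 bases after the start, the NRF1 core was present in 14 of 32 of these genes with a window (43.8%) and in 9.22% of 27025 genes, the ETS core in 4 (12.5% against 4.31%), and the YY1 core (AAGATGGC) in 3 (9.38% against 3.19%). Neither Cox6b2 nor Cox7a2l held any of these letters in its window. A match is a description of the letters and not a binding site.

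The genes around the complexes were read from lists of their roles. All 6 mitochondrially encoded subunits of complexes III, IV and V were tested. In IR against Ctrl 4 were lower and none higher (median -0.44), where 25.5% of all genes were lower, and 6 were lower without Ctrl replicate 1 (-0.47), where 34.7% of all genes were. mt-Co3, a core subunit of complex IV, read 2583, 3087 and 2548 FPKM in Ctrl, 1516, 1550.5 and 1542 under IR, 2685, 2557 and 2591 under Ab_IR and 2183, 2409 and 2348 under L_IR. IR lay below all other libraries (-0.83 ± 0.105, adjusted p = 0.00144 against Ctrl, 0.76 ± 0.0368, adjusted p = 2.62e-06 for Ab_IR against IR and 0.59 ± 0.0401, adjusted p = 1.88e-05 for L_IR against IR). Against IR, 4 of the 6 were higher in Ab_IR and 5 in L_IR, and none lower, where 39.4% and 40.8% of all genes were called higher. With 6 genes these counts are a description of the list, and no difference from all genes was tested for this list or those that follow. Quantile normalization left 1 lower in IR against Ctrl, and turned Ab_IR against IR to 3 higher and 2 lower. With immunoglobulin genes left out, Ab_IR against IR had 3 higher and 1 lower.

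Atpif1, the inhibitor of complex V, read 68, 101 and 91.5 FPKM in Ctrl, 50.8, 48.4 and 51.4 under IR, 90.8, 89.7 and 99.99 under Ab_IR and 69.9, 74.5 and 68.6 under L_IR. Its IR values lay below those of every other library (-0.76 ± 0.145, adjusted p = 0.00707 against Ctrl, 0.88 ± 0.0503, adjusted p = 5.83e-06 for Ab_IR and 0.49 ± 0.0388, adjusted p = 3.93e-05 for L_IR against IR). Without Ctrl replicate 1 the difference of Atpif1 from Ctrl was -0.92 (adjusted p = 5.31e-05). Of the other 4 genes of that list, which assemble complex V, Tmem70 and Tmem242 were lower in Ab_IR than in IR. Cycs, cytochrome c itself, which carries electrons from complex III to complex IV, moved the opposite way, at 43.4, 62.4 and 57.1 FPKM in Ctrl, 72.2, 70.2 and 71.5 under IR, 53.5, 50.6 and 51.3 under Ab_IR and 51.4, 51.5 and 49.2 under L_IR. It was higher in IR than in every other library (0.40 ± 0.132, adjusted p = 0.0489 against Ctrl, -0.45 ± 0.0348, adjusted p = 2.41e-05 for Ab_IR and -0.48 ± 0.0267, adjusted p = 6.88e-06 for L_IR against IR), although quantile normalization took the call against Ctrl away. Without Ctrl replicate 1 the difference of Cycs from Ctrl was 0.25 (adjusted p = 0.00580). The 4 complex II subunits were higher in Ab_IR and in L_IR than in IR, where 39.4% and 40.8% of all genes were, but after median scaling the count was 3 in Ab_IR and 1 in L_IR, and with immunoglobulin genes left out it was 1 in Ab_IR.

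Of 3 complex IV subunits outside the name rule, Cox4i1 read 71.7, 143 and 132 FPKM in Ctrl, 129.5, 132 and 130.4 under IR, 161, 169.6 and 173 under Ab_IR and 152, 152 and 148 under L_IR. Every Ab_IR and L_IR library lay above IR (0.36 ± 0.0359, adjusted p = 8.92e-05 and 0.21 ± 0.0217, adjusted p = 1.53e-04). Ndufa4 was higher in Ab_IR (0.26 ± 0.0533, adjusted p = 0.00354), and with immunoglobulin genes left out or the length trend taken out 1 of this pair was called higher in Ab_IR. Cox4i2 was too low to test. Of 21 tested complex IV assembly factors, 4 were higher in IR than in Ctrl and none lower, namely Cox11, Cox15, Sco1 and Surf1, where 17.5% and 25.5% of all genes were called. That split was 7 and 4 without Ctrl replicate 1 (25.1% and 34.7% of all genes), 8 and 2 with the length trend taken out, and 6 and 0 after quantile normalization or with immunoglobulin genes left out. Cox11, which delivers copper to complex IV, had the largest difference, from 3.35, 2.59 and 1.99 FPKM in Ctrl to 5.07, 6.22 and 6.66 in IR (0.95 ± 0.159, adjusted p = 0.00428, and 1.08 without Ctrl replicate 1). The same list gave 6 higher and 6 lower in Ab_IR against IR (39.4% and 29.4% of all genes), and 4 and 6 in L_IR against IR (40.8% and 26.0% of all genes), where quantile normalization gave 0 higher and 11 lower and the length fit 0 and 7. With immunoglobulin genes left out or the length trend taken out, the Ab_IR split was 3 and 10. Of 5 tested complex III assembly factors, 4 (Uqcc2, Uqcc3, Ttc19 and Bcs1l) were higher in both Ab_IR and L_IR than in IR, where 39.4% and 40.8% of all genes were. In IR against Ctrl none of the 5 was called, and 3 were lower without Ctrl replicate 1, where 34.7% of all genes were. Against IR, rescaling left 2 to 4 of the 5 higher and up to 1 lower. The 6 nucleotide and phosphate carriers gave 2 higher and 2 lower in Ab_IR against IR (0 and 4 with immunoglobulin genes left out or the length trend taken out), and 0 higher and 3 lower in L_IR against IR. The shares of all genes were 39.4% and 29.4% in the first and 40.8% and 26.0% in the second. Against Ctrl, IR had 0 calls in either direction among these carriers, and 2 higher and 1 lower without Ctrl replicate 1. Among 11 tested regulators, Tfam, which packages mitochondrial DNA, was lower in IR than in Ctrl (-0.36 ± 0.103, adjusted p = 0.0302) and so was Tfb1m (-0.44 ± 0.129, adjusted p = 0.0336), while Yy1 was higher (0.22 ± 0.0701, adjusted p = 0.0473). Without Ctrl replicate 1 these differences were -0.29, -0.58 and 0.17, all still called, and the split of 1 higher and 2 lower became 4 and 2. After quantile normalization or median scaling none of the 11 was called lower in IR. In Ab_IR against IR, 2 of the 11 were higher and 3 lower (39.4% and 29.4% of all genes), and in L_IR against IR 5 and 4 (40.8% and 26.0%). Gabpa, Yy1 and Tfb2m were the 3 lower in Ab_IR, and Gabpa, Gabpb1, Yy1 and Esrra the 4 lower in L_IR. Polrmt, Ppargc1b and Pprc1 were higher in L_IR along with Tfam (0.20) and Tfb1m (0.26). The 2 higher in Ab_IR were Tfam and Tfb1m (0.33 ± 0.0669, adjusted p = 0.00332 and 0.49 ± 0.0536, adjusted p = 1.41e-04).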

How the data were processed

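The deposited tables hold 1 value per gene and library, which were taken as FPKM computed by the authors; the headers name no unit, and it was inferred from the values. The submitters' processing notes name fastp, HISAT2, StringTie and the builds GRCm38 and mm10, and the study's methods name RSEM, so the quantifier was not settled. No read totals can be recovered from FPKM, so depth and counting error are unknown.

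Each of 6 pairs of groups was fitted on log2(FPKM + 1) with limma 3.58.1 in R 4.3.3 (a trended prior variance), on genes at 1 FPKM or more in at least 3 libraries of the pair, which understates the change of low genes. Unlike the count models of the study's methods, this suits FPKM. P-values were two-sided and adjusted by Benjamini-Hochberg over all genes tested. A gene was called at an adjusted p under 0.05. A ± after a log2 fold change is the standard error (3 libraries a group, 2 for Ctrl where replicate 1 was left out). Fits were tested on simulated data with 1 large size of change.

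Transcript lengths came from GENCODE (97.6% of names matched) and gene positions and upstream windows from RefSeq GRCm38.p6. Named genes were the largest called rise and fall in each complex and comparison, the tissue isoforms and their partners, the c-ring paralogs and 6 core subunits. Uqcrq, Uqcrc2, Atp5h, Atp5o, Atp5a1 and the pathway genes given with values were added after their values were seen. The gene set, the lists and the tests were chosen with earlier results of these data known. Alternatives covered the pseudocount, the filter, the scaling, the variance prior, the libraries fitted, a replicate block and transcript length. No library was left out except where stated.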

Additional observations from a re-analysis of the deposited data

How the results depend on the processing

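Over 41 results for single genes, 732 alternatives gave 553 with the same direction and call, 171 with the same direction and no call, and 8 with the opposite direction. The reversals were Atp5g3 in Ab_IR against IR (from 0.12 to -0.03 with immunoglobulin genes left out and -0.07 with the length trend taken out), Cox5a (-0.03) and Uqcrh (-0.01) in L_IR against IR with the length trend taken out, Atp5g2 in Ab_IR against L_IR (-0.01 with immunoglobulin genes left out), and, in a fit of all 12 libraries with the heart split as a term, Cyc1 in Ab_IR against IR (0.16) and Atp5g1 (0.24) and Cyc1 (0.25) in L_IR against IR. This heart-split fit changes both the libraries fitted and the model. It was chosen after seeing the data, and its term is estimated from Ctrl replicate 1 against Ctrl replicates 2 and 3 alone.

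Counts below are of genes called higher and lower. They describe these genes alone, as the shares of all genes called under these alternatives are not given beside them. With each library left out in turn, IR against Ctrl gave 2 to 4 higher and 1 to 16 lower, Ab_IR against IR 15 to 22 and 0 to 2, L_IR against IR 9 to 12 and 2 to 5, Ab_IR against L_IR 10 to 17 and 0, Ab_IR against Ctrl 0 to 1 and 0, and L_IR against Ctrl 0 to 4 and 1 to 3. In IR against Ctrl (4 and 2), no filter gave 2 and 1, quantile normalization 2 higher, a mean of at least 10 FPKM 1 lower, and the heart-split fit 16 lower. In Ab_IR against IR (21 and 2), 1 fit of all 12 libraries gave 4 and 0, the length fit 10 and 6, a mean of at least 10 FPKM 1 lower, quantile normalization 5 lower, median scaling 4 lower, leaving out immunoglobulin genes 6 lower and the heart-split fit 0 lower. In L_IR against IR (12 and 5), the fit of all 12 gave 2 and 1, the length fit 3 and 11, the heart-split fit 31 and 1, quantile normalization 3 lower and limma without a trend 2 lower. In Ab_IR against L_IR (14 and 0), leaving out immunoglobulin genes gave 6 and 4, the length fit 8 and 3, the fit of all 12 gave 3 higher and quantile normalization 1 lower. In Ab_IR against Ctrl (0 and 0), the fit of all 12 gave 6 and 1 and the heart-split fit 34 higher. In L_IR against Ctrl (2 and 1), a pseudocount of 0.1, quantile normalization and limma without a trend each gave 1 higher, no filter 0 higher, a mean of at least 10 FPKM 0 lower and the heart-split fit 33 higher. The causes were not tested.

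Replicate numbers did not pair the libraries (correlations of same-numbered deviations from -0.27 to 0.22). With the replicate block, the counts were 2 and 2 for IR against Ctrl, 22 and 2 for Ab_IR against IR, 13 and 2 for L_IR against IR, 11 and 0 for Ab_IR against L_IR, 0 and 0 for Ab_IR against Ctrl, and 0 and 1 for L_IR against Ctrl. Leaving out the pseudogene rows, also chosen after seeing the data, changed no count by more than 1.5 times.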
